A study of Mus musculus with 2 samples.

Results

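Genes of arginine and polyamine metabolism were examined in adipose-tissue macrophages (ATM) with and without myeloid deletion of Hif-1α. The 8 genes are the inducible nitric oxide synthase Nos2, the polyamine synthesis enzymes Odc1, Srm and Sms, the catabolic acetyltransferase Sat1, and the regulators Oaz1, Oaz2 and Azin1. They were chosen by name as a pathway, with earlier results of these data known, and all 8 were found among the 20330 genes of the table. ATM were sorted with F4/80 and CD11b antibodies from visceral fat of C57BL/6 mice kept for 12 weeks on a high-fat diet, which by the study's methods began when the mice were 4 weeks old. The KO library came from hMRP8cre+;Hif-1αfl/fl;ApoE-/- mice, in which Cre recombinase is driven by the promoter of the human myeloid gene MRP8, and the WT library from hMRP8cre-;Hif-1αfl/fl;ApoE-/- mice, so that both carried the floxed Hif-1α alleles and the genotype ApoE-/-. Each genotype had 1 library, the number of mice behind a library is not given in the sources used here, and no value below has a replicate error.

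Arginine stands at a branch point in macrophages. Nitric oxide synthase turns it into nitric oxide and citrulline, a reaction known from classically activated macrophages. Another route gives urea and ornithine. Ornithine decarboxylase makes putrescine from ornithine, and spermidine synthase and spermine synthase then add aminopropyl groups to give spermidine and spermine. Antizymes bind ornithine decarboxylase and send it for degradation, the antizyme inhibitor relieves this, and spermidine/spermine acetyltransferase marks polyamines for export or oxidation. Nos2 is a known HIF-1 target.

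The enzymes that turn ornithine into putrescine, spermidine and spermine had lower levels in the KO library. Odc1, Srm and Sms were each past 3-fold lower, which is 3 of the 7 genes that reached an FPKM of 1 in a library. Over all 10297 such genes 13.7% were past 3-fold lower and 13.6% past 3-fold higher. The acetyltransferase Sat1, the antizymes Oaz1 and Oaz2 and the inhibitor Azin1 stayed within 3-fold, and none of the 7 genes was past 3-fold higher. The median difference of the 7 genes in log2(FPKM + 1), KO minus WT, was -0.78, against 0.03 over all genes tested. Less RNA per cell and fewer cells that hold the RNA cannot be told apart in sorted bulk samples.

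**Figure D1:**
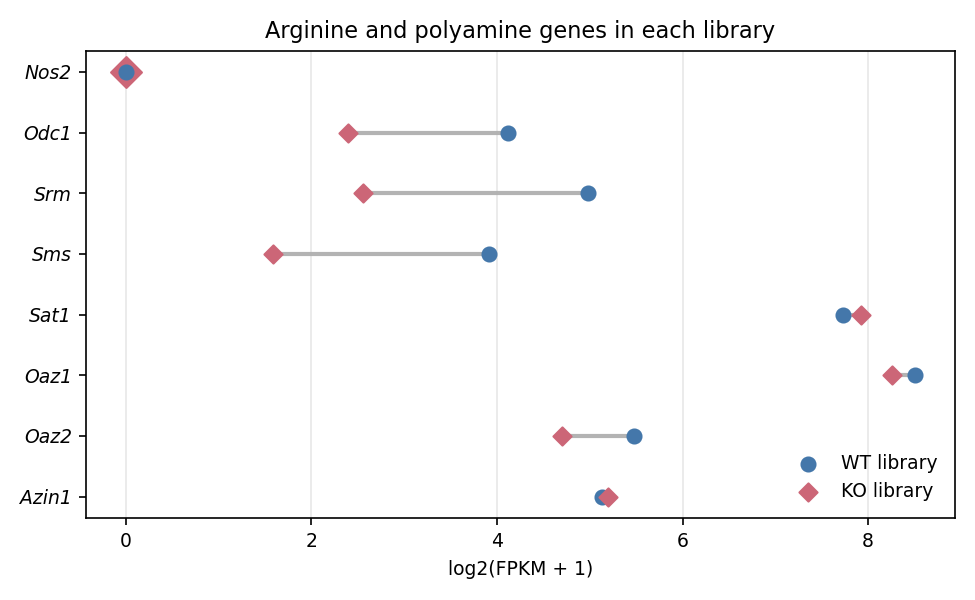
Level of each of the 8 genes on the log2(FPKM + 1) scale in the WT library (circles) and the KO library (diamonds), 1 library each and without error bars. Odc1, Srm and Sms lie far to the left in KO, Sat1, Oaz1 and Azin1 nearly coincide, and Nos2 is listed at 0 in both (circle on an enlarged diamond).

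The libraries were first examined for depth, the targeted gene and the sorted cell type. The smallest recurring FPKM step was 0.171 FPKM x kb in WT and 0.134 in KO, and it was taken as 1 fragment. Genes above 0 numbered 9773 in WT and 10124 in KO. Hif1a had 30.4 FPKM in WT against 21.0 in KO, a difference of -0.52 in log2(FPKM + 1), and the floxed exon itself was not analysed here. Epas1, which encodes HIF-2α, had 5.22 FPKM in WT against 2.40 in KO, and Apoe was at 94.3 and 117. RNA of Apoe was thus present in both libraries although both are labelled ApoE-/-, and the disrupted part of that gene was not analysed here. The sort genes Adgre1 (299 FPKM in WT, 239 in KO) and Itgam (128 in both) were present, and none of the 8 macrophage markers in the table was past 3-fold.

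The promoters of the polyamine synthesis genes are shown because these genes were lower together. RefSeq windows of 300 bases, from 250 before to 50 after a start site, were found for 5 of the 8 genes, namely Odc1, Sat1, Sms, Oaz1 and Oaz2. Windows were searched on both strands for ACGTG and GCGTG, the forms of the core bound by HIF, and for CACGTG, the E-box bound by Myc and Max, which contains ACGTG. Capitals mark these letters.
Odc1, plus strand, chr12:17544623-17544922: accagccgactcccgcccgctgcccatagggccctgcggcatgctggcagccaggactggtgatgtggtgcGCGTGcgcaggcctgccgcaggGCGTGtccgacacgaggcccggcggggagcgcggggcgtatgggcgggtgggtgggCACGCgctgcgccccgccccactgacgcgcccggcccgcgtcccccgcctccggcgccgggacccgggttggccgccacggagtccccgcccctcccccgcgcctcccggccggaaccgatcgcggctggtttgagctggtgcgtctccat
Sms, minus strand, upstream start, chrX:157492238-157492537: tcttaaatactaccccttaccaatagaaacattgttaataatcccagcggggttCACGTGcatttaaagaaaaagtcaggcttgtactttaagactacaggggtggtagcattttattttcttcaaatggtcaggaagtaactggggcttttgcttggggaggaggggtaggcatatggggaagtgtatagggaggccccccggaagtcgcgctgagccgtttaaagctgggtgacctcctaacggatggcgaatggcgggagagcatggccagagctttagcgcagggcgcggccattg
Sms, minus strand, downstream start, chrX:157491319-157491618: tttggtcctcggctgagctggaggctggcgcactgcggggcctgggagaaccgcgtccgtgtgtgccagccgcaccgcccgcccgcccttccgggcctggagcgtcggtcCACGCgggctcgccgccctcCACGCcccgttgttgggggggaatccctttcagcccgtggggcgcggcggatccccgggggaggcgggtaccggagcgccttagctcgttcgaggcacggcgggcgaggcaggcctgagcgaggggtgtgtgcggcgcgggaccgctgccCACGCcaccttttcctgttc

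The upstream Sms window held 1 CACGTG, the downstream Sms window held 3 GCGTG, and the Odc1 window held 3 GCGTG and no ACGTG. Of the genes that were not called, the Oaz1 window also held 3 GCGTG, and the Sat1 and Oaz2 windows held none of these letters. Among all 32851 RefSeq windows, 7.15% held CACGTG, 19.6% held ACGTG and 32.4% held GCGTG. Such matches describe the letters of a window and not binding.

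The nitric oxide branch was examined next. Nos2 (ENSMUSG00000020826, chromosome 11, 78920787 to 78960254), which makes nitric oxide from arginine, was listed at 0 in both libraries, so no difference could be given for it. It fell under the filter on low values and was not compared.

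The enzymes that make putrescine, spermidine and spermine were described in order. Odc1 (ENSMUSG00000011179, chromosome 12, 17544794 to 17551505) encodes ornithine decarboxylase, the rate-limiting enzyme that makes putrescine. It had 16.3 FPKM in WT against 4.26 in KO, a difference of -1.72 in log2(FPKM + 1). The FPKM was 3.83 times as high in WT. About 211 fragments in WT and 70.3 in KO stood behind these values, and the 95% interval of the ratio from counting error alone, here called the counting interval, was 2.92 to 5.11. Odc1 was the nearest of the called genes to the threshold, at 3.29-fold on the log2(FPKM + 1) scale.

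Srm (ENSMUSG00000006442, chromosome 4, 148591503 to 148594993) encodes spermidine synthase, which adds the first aminopropyl group. It had 30.5 FPKM in WT, the highest of the synthesis enzymes, against 4.88 in KO. The difference was -2.42 in log2(FPKM + 1), and the FPKM was 6.25 times as high in WT, with a counting interval of 4.56 to 8.64. Sms (ENSMUSG00000071708, chromosome X, 157443855 to 157492287) encodes spermine synthase, which adds the second group. It had 14.1 FPKM in WT against 2.01 in KO, a difference of -2.33, and the FPKM was 7.01 times as high in WT, with a counting interval of 5.22 to 9.43.

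The synthesis enzymes were in the same order in both libraries, with Srm first, then Odc1, then Sms. The summed FPKM of Odc1, Srm and Sms was 60.9 in WT and 11.2 in KO, 5.46 times as high in WT. Srm was 2.17 times the level of Sms in WT and 2.43 times in KO. Odc1 lay close to Sms in WT and close to Srm in KO, since it differed less between the libraries than either. Without replicates no spread tells which neighbours in this order differ.

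**Figure D2:**
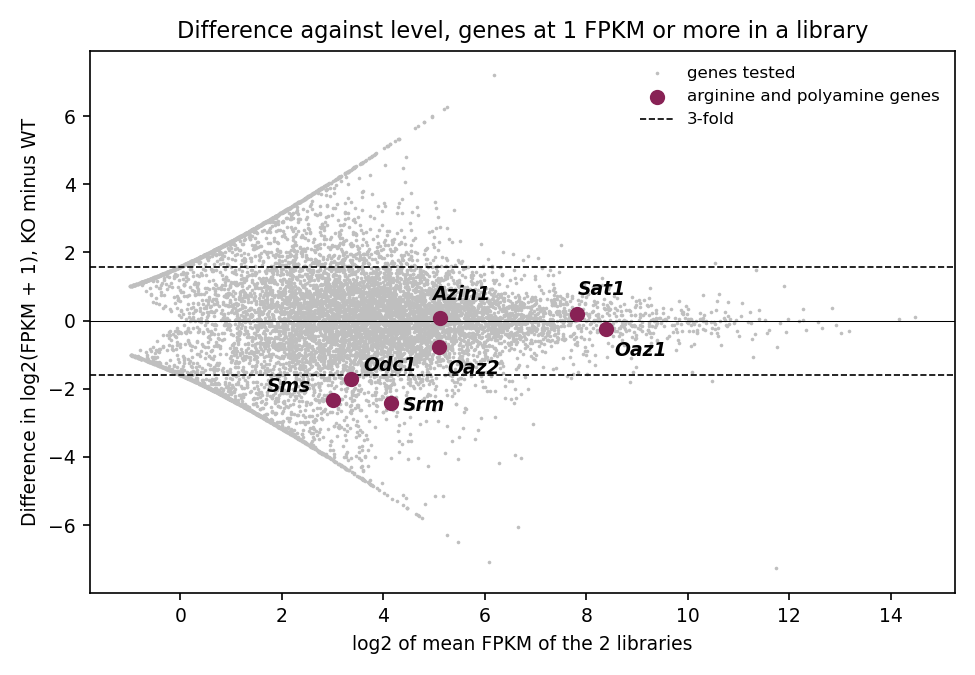
Difference in log2(FPKM + 1), KO minus WT, against the log2 of the mean FPKM for the 10297 genes tested (grey), with the 7 comparable arginine and polyamine genes in purple and dashed lines at 3-fold. Odc1, Srm and Sms lie under the lower line, where many other genes of a like level lie too, and the cloud narrows to the right, where Sat1 and Oaz1 lie near 0.

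How often genes of a like level passed the same threshold was also counted. Sms had a mean level of 8.04 FPKM, and of the 4790 genes with a mean of 1 to 10 FPKM, 22.4% were past 3-fold lower. Odc1 and Srm had means of 10.3 and 17.7 FPKM, and of the 4239 genes at 10 to 100 FPKM, 7.78% were past 3-fold lower. In a band of 5 to 20 FPKM, chosen after seeing the data because it holds all 3 genes, the share was 13.3% of 3746 genes. The middle 95% of differences in that band ran from -3.90 to 3.87, and each of the 3 genes lay inside it.

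The genes that hold polyamine synthesis in check were more abundant than the synthesis enzymes and differed less between the libraries. Oaz1 (ENSMUSG00000035242, chromosome 10, 80826656 to 80829290), which encodes the main antizyme, had 363 FPKM in WT against 305 in KO. It ranked 250 in WT and 281 in KO, the highest of the 8 genes in both libraries, and its difference was -0.25 in log2(FPKM + 1). Oaz2 (ENSMUSG00000040652, chromosome 9, 65668001 to 65690300), a second antizyme, had 43.6 FPKM in WT against 25.0 in KO. Its difference of -0.78 had the same direction as that of the synthesis enzymes and was within 3-fold, and its FPKM was 1.75 times as high in WT with a counting interval of 1.52 to 2.01.

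Antizyme production depends on translation as well as on mRNA level, through a shift of reading frame that polyamines promote. The site in both mRNAs is shown because the FPKM of Oaz1 and Oaz2 does not read it. It was taken from GENCODE M21 transcripts on GRCm38, and capitals mark the last codon of the first frame, its stop codon TGA and the next base.
Oaz1, plus strand, chr10:80828280-80828309: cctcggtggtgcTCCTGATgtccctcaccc
Oaz2, plus strand, chr9:65686257-65686286: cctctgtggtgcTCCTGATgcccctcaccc

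The windows were identical at 28 of 30 bases. The run GTGCTCCTGATG, searched on the sense strand, was found in transcripts of 20 of 55450 annotated genes, or 0.0361%, among them the pseudogene Oaz1-ps. Likeness of this pseudogene to Oaz1 beyond that run was not measured here. How the authors' estimates divided reads between Oaz1 and Oaz1-ps is not given in the sources used here. The level of Oaz1 carries that uncertainty, as does that of Sms, which also has an annotated pseudogene.

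Azin1 (ENSMUSG00000037458, chromosome 15, 38487427 to 38519266), which resembles ornithine decarboxylase and binds antizyme in its place, had 34.0 FPKM in WT against 35.5 in KO. Its difference was 0.06 in log2(FPKM + 1), with a counting interval of 0.961 to 1.14 for the KO to WT ratio of 1.04. Sat1 (ENSMUSG00000025283, chromosome X, 155213132 to 155216449), which acetylates spermidine and spermine, had 212 FPKM in WT against 241 in KO. Its difference of 0.19 was the highest of the 7 genes. At a mean of 100 to 1000 FPKM, where Oaz1 and Sat1 lie, 1.38% of 653 genes were past 3-fold lower and 0.613% past 3-fold higher.

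Ratios within a library do not depend on how the libraries were scaled to each other. Oaz1 was 22.2 times the level of Odc1 in WT and 71.6 times in KO. Sat1 was 13.0 times the level of Odc1 in WT and 56.6 times in KO, Azin1 was 2.08 and 8.34 times that level, and Oaz2 was 2.67 and 5.86 times. The ratios to Odc1 were thus 2.19 (Oaz2) to 4.37 (Sat1) times as high in KO, with Oaz1 at 3.22 and Azin1 between Oaz1 and Sat1. They share Odc1 as denominator, which was 3.83 times as high in WT, so their rise mainly restates that difference. The summed FPKM of Oaz1, Oaz2, Azin1 and Sat1 was 652 in WT and 607 in KO, against the drop from 60.9 to 11.2 in the sum of the synthesis enzymes.

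The other genes of the pathway were then compared by role. Of 52 genes on these lists 50 were in the table and 32 were tested, of which 6 (18.8%) were past 3-fold lower and 6 (18.8%) past 3-fold higher, with a median difference of -0.05. Over all genes tested the shares were 13.7% and 13.6%, close to those of these lists. Those lower included 4 genes with a listed value of 0 in KO, namely Slc7a6, Aldh18a1, Mat2b and Slc18b1. Where both libraries had to reach 1 FPKM, or the mean 5 FPKM, 2 were lower and 5 higher, of fewer genes tested, so these counts are not shares. A listed 0 may be a failed estimate, since Aimp2, a scaffold of the aminoacyl-tRNA synthetase complex that cells in general use, had 38.4 FPKM in WT and was listed at 0 in KO (a gene chosen after its values were seen). Over all genes, 640 of the 1413 called lower were listed at 0 in KO and 730 of the 1402 called higher at 0 in WT, and none of Odc1, Srm and Sms was at 0 in either library.

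Spermidine has a use of its own in translation, as the donor of the hypusine residue of the factor eIF5A. Dhps, which transfers the spermidine moiety to eIF5A, had 2.07 FPKM in WT against 30.9 in KO, a difference of 3.37 in log2(FPKM + 1). Dohh, which completes the residue by hydroxylation, was at 2.52 and 21.1 FPKM, a difference of 2.65. Both enzymes were past 3-fold higher in KO while the spermidine synthase Srm was past 3-fold lower. About 16.2 fragments (Dhps) and 21.3 (Dohh) stood behind the WT values. Their mean levels were 16.5 and 11.8 FPKM, and both differences lay inside the middle 95% of genes at 5 to 20 FPKM, -3.90 to 3.87. Over all genes tested 13.6% were past 3-fold higher. Eif5a, the substrate of Dhps and Dohh, had 341 FPKM in WT against 328 in KO, and Eif5a2 was listed at 0 in both.

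The aminopropyl groups come from S-adenosylmethionine. Mat2a, which makes this compound, had 130 FPKM in WT against 191 in KO, and Amd1, which decarboxylates it for polyamine synthesis, was at 20.9 and 37.2. Both were higher in KO and within 3-fold, unlike the synthases that use their product. Mat2b, the regulatory subunit, had 14.2 FPKM in WT and 0 as listed in KO. Mtap, which salvages the methylthioadenosine released at each aminopropyl transfer, had 7.62 FPKM in WT against 1.17 in KO, a difference of -1.99 and past 3-fold lower. The later salvage enzyme Apip, at 43.5 and 25.5 FPKM, was within 3-fold.

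Most genes of polyamine breakdown and transport were within 3-fold. The spermine oxidase Smox had 11.8 FPKM in WT against 18.2 in KO. The lysosomal polyamine exporter Atp13a2 was at 56.2 and 33.5 FPKM, and Atp13a3 at 13.8 and 13.4. Only Slc18b1, a vesicular polyamine transporter at 4.74 FPKM in WT and listed at 0 in KO, was past the threshold among the 5 genes of this list that were tested.

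Arginine supply was compared as well. Slc3a2, the shared heavy chain of several amino acid transporters, had 149 FPKM in WT against 247 in KO, and its partner Slc7a7 was at 8.52 and 23.8, both within 3-fold on the log2(FPKM + 1) scale. Slc7a1, the main cationic amino acid transporter of many cells, was at 3.58 and 5.89 FPKM, and Slc7a6 was at 3.90 in WT and listed at 0 in KO. Slc7a2, known for arginine uptake in activated macrophages, was listed at 0 in both. Asl, the last enzyme that remakes arginine from citrulline, was at 19.4 and 13.1 FPKM, while Slc25a15, which carries ornithine into mitochondria, was at 0.528 in WT and 4.30 in KO, a difference of 1.79 and past 3-fold higher.

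The fates of ornithine and arginine outside polyamine synthesis were mixed. Oat, which sends ornithine towards glutamate and proline, had 27.0 FPKM in WT against 17.1 in KO, and Aldh18a1, which makes the proline and ornithine precursor from glutamate, was at 6.40 in WT and listed at 0 in KO. In creatine synthesis Gatm was at 68.3 and 74.0 FPKM, and Gamt, which carries out the next step, was at 72.4 in WT and 19.4 in KO, a difference of -1.85 and past 3-fold lower.

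Several genes around nitric oxide synthesis were above 0, whereas the synthases Nos1 and Nos3 were listed at 0 in both libraries, as Nos2 was. Gch1, the first enzyme of the cofactor tetrahydrobiopterin, had 34.1 FPKM in WT against 29.2 in KO, and Pts, the next one, was at 3.93 and 19.0, a difference of 2.02 and past 3-fold higher. Ddah2, which degrades an inhibitor of the synthases, was at 4.76 and 19.7 FPKM, and Nosip, which binds the endothelial synthase, was at 2.44 and 15.1, both past 3-fold higher. Qdpr, which regenerates the cofactor, was at 21.8 and 9.65 FPKM, Spr was at 5.04 and 15.9, and both were within 3-fold on the log2(FPKM + 1) scale, though the FPKM of Spr itself was 3.15 times as high in KO and Spr was called higher with a pseudocount of 0.1 or 0.01.

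**Figure D3:**
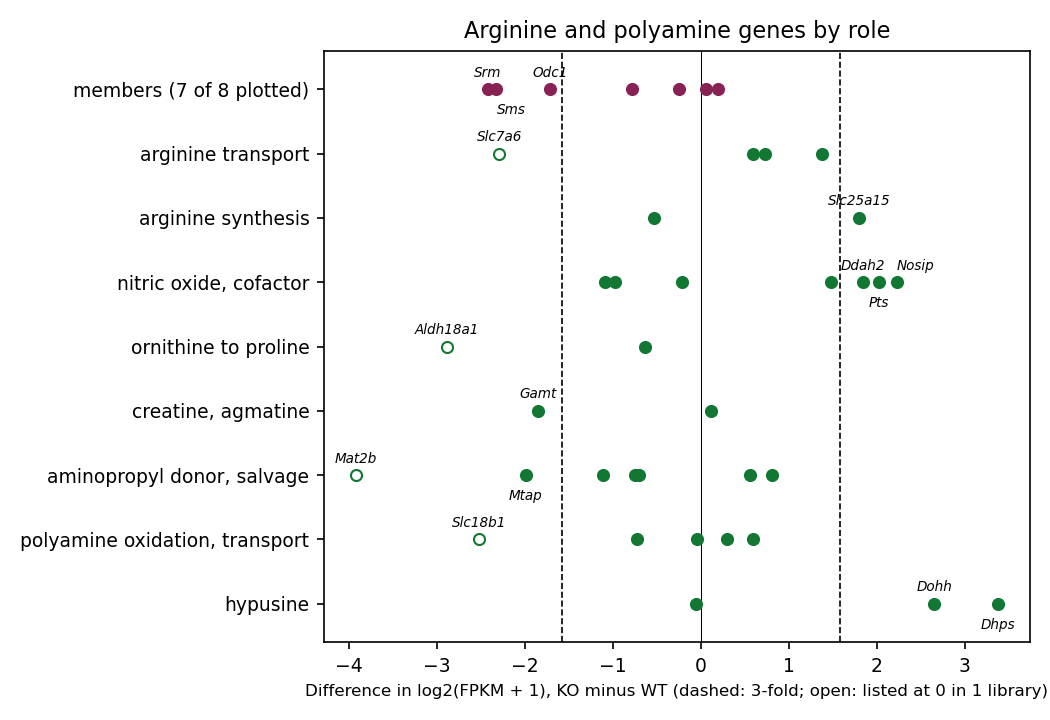
Difference in log2(FPKM + 1), KO minus WT, for the arginine and polyamine genes (purple) and the other pathway genes by role (green), with dashed lines at 3-fold, names for genes past it, and open circles for genes listed at 0 in 1 library. The 3 purple genes past the left line are Odc1, Srm and Sms, Dhps and Dohh lie farthest to the right, and the 32 green genes lie on both sides.

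Markers of other cells were set beside these values. Summed over the 8 macrophage markers the FPKM was 11640 in WT and 11585 in KO, with C1qb and Lyz2 the highest. Of these 8 markers 3 had a difference above 0 and 5 below 0, all within 3-fold. Mertk was higher in KO, with a difference of 1.19 in log2(FPKM + 1), and Fcgr1 was lower, at -1.14. The near-equal sums, led by C1qb and Lyz2, do not show these opposite differences. Over 8 neutrophil markers the summed FPKM was 158 and 521, with S100a8 and S100a9 the highest and Camp and Ltf listed at 0 in both. All 6 that were tested were higher in KO, 2 of them past 3-fold. Over 6 fibroblast markers the sum was 43.2 and 84.3, led by Dcn and Col3a1, with all 5 tested higher in KO, 2 of them past 3-fold. Over all genes tested 13.6% were past 3-fold higher, and 5280 of 10297 had a difference above 0. The sums were 124 and 140 for dendritic cells, mostly Cd209a. Zbtb46 was next, listed at 0 in WT and 9.45 FPKM in KO, while Xcr1 went the other way, at 1.65 and 0.0588. For endothelial cells, led by Pecam1 and Cdh5, the sums were 13.6 and 16.0. For B cells, led by Cd79b and Cd79a, they were 2.75 and 6.46. These markers went opposite ways, with Cd79b listed at 0 in WT and 5.52 in KO, and Cd79a at 2.50 and 0.222. For adipocytes the sums were 5.83 and 1.60, which was Cidec alone in WT (listed at 0 in KO) and Lep alone in KO (listed at 0 in WT), with Adipoq and Plin1 at 0. The sums were 0 and 7.45 for eosinophils (Ccr3 alone), and 0 and 7.84 for mesothelial cells (Upk3b alone). All 4 T cell markers in the table were listed at 0. The part of these cells in the lower levels of Odc1, Srm and Sms was not tested.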

How the data were processed

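RNA from adipose-tissue macrophages (ATM) sorted from WT and KO mice was sequenced, with 1 library per genotype. The authors deposited 1 table of FPKM values (fragments per kilobase of transcript, scaled to the mapped fragments of a library) per gene. Per the labels' processing notes, CASAVA 1.8.2, TopHat2 2.0.9, Cufflinks 2.2.1 and the build mm9 were used; annotation and filters are not given in the sources used here. The mutant column was taken as KO. FPKM values are not counts, so no count model was applied.

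Of 20749 rows, 401 full repeats were dropped, and 18 rows with other values for a gene already present were summed, leaving 20330 genes, 20035 of them with a symbol. Symbols, coordinates and transcript lengths came from GENCODE M21 (GRCm38), and promoter windows from RefSeq (GRCm38.p6). Differences are in log2(FPKM + 1), KO minus WT, for genes that reached an FPKM of 1 in a library, and 3-fold on that scale was called. There is no test, since no replicate exists. The smallest recurring value of FPKM x kb in genes with a single annotated transcript was taken as 1 fragment. Fragments per gene were estimated with it from the FPKM and the length of the longest coding transcript. The 95% intervals of ratios (Clopper-Pearson) treat these estimates as counts and cover counting error only. They are too narrow where PCR copies, which are not independent molecules, were counted or where shorter transcripts were expressed. The code that makes the calls was tested on simulated data. Python 3.11.15, pandas 2.3.3 and scipy 1.17.1 were used.

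Some genes of this pathway are not reported here. The 8 genes, the lists of pathway genes and the lists of cell type markers were chosen with earlier results of these data known. Named from each pathway list were all genes past 3-fold and up to 3 others of the highest mean FPKM, and from each marker list up to 2 genes of the highest mean FPKM plus Adgre1 and Itgam. The markers Mertk, Fcgr1 and Xcr1 were added after their values were seen. Genes listed at 0 in both libraries were named after their values were seen. Alternatives were other pseudocounts, filters, scalings, a 2-fold threshold and another handling of repeated rows.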

Additional observations from a re-analysis of the deposited data

How the results depend on the processing

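Odc1, Srm and Sms were called lower under each of the 10 alternatives, and no other of the 8 genes was called under any of them. The filters and the handling of repeated rows leave the value of a single gene as it is. A stricter filter could end a call by leaving a gene untested, and Odc1, Srm and Sms passed both stricter filters. The smaller pseudocounts and the looser threshold could not end a call. The lowest value of these 3 genes was 2.01 FPKM (Sms in KO) and the lowest mean 8.04 FPKM (Sms), so neither stricter filter could remove them. The 3 scalings were too small to bring even Odc1, at 3.29-fold, under the threshold. That the calls held under the 10 alternatives is thus no further support for them. Over the pseudocounts and scalings the difference in log2(FPKM + 1 or another pseudocount) ran from -1.93 to -1.66 for Odc1, -2.64 to -2.37 for Srm and -2.80 to -2.28 for Sms. The other scalings shifted log2 values of KO by -0.03 to 0.07. The median of the 8 genes was -0.51 with no filter, where Nos2 enters. Over all genes, 447 were lower and 429 higher where both libraries had to reach 1 FPKM, and 646 and 598 where the mean had to reach 5 FPKM. Fewer genes were tested under these filters, and that number is not given here, so counts under them are not shares. At 2-fold 2314 of the 10297 genes tested were lower and 2380 higher. The count of other pathway genes called lower was 2 under both stricter filters, Gamt and Mtap where both libraries had to reach 1 FPKM and Gamt and Mat2b where the mean had to reach 5 FPKM, because fewer genes were then tested, and 5 were called higher under each. With either smaller pseudocount 7 of the 32 pathway genes tested were called higher, Spr being added. Over all 10297 genes 1903 were then higher with a pseudocount of 0.1 and 1931 with 0.01. At 2-fold 8 of the 32 were lower and 8 higher. No paired analysis was possible because WT and KO were 1 library each. With 1 library per genotype a difference between genotypes and one between libraries cannot be told apart. At the levels of Odc1, Srm and Sms, other genes differed widely too, with 13.3% past 3-fold lower at a mean of 5 to 20 FPKM.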
